A study of Mus musculus with 6 samples.

Results

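Xirp1, Xirp2 and Nrap, which encode actin-binding proteins of heart muscle, and 7 junction genes of the intercalated disc (Cdh2, Jup, Dsp, Dsg2, Pkp2, Gja1 and Ctnna3) were followed in hearts of mice given angiotensin II (Ang II) and of control mice. The 10 genes were taken by name from a table of 55401 Ensembl genes, and all 10 were among the 16759 genes with enough counts to be tested. They were chosen by their Ang II against control difference in counts and FPKM, so that difference is given here as a description and not as evidence about the genes.

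The Ang II group was 3 hearts of C57BL/6 mice aged 6 to 8 weeks that had received Ang II, a peptide hormone that constricts vessels and is used in mice to enlarge the heart. The control group was 3 hearts of C57BL/6 mice of the same age labelled as controls. The labels give neither the dose and duration of Ang II, nor the sex of the animals, nor what the controls received. Each library came from poly(A) RNA of tissue labelled as heart, although the protocol text of the labels mentions adipose tissue. No cell type was separated, and fewer cells of a type cannot be told apart from less RNA per cell.

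The intercalated disc joins cardiac muscle cells end to end. Its adherens junctions and desmosomes carry force between neighbouring cells, and its gap junctions pass current between them. N-cadherin (Cdh2) spans the membrane at adherens junctions and is tied to actin through catenins, while desmoglein (Dsg2) spans it at desmosomes and is tied through plakoglobin (Jup), plakophilin (Pkp2) and desmoplakin (Dsp) to the intermediate filament protein desmin. Connexin 43 (Gja1) forms most of the gap junction channels of working ventricular muscle. Proteins with Xin repeats bind actin filaments, and in heart muscle they sit at the disc together with N-cadherin and β-catenin.

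Promoters of 3 of these genes are shown. Xirp2 and Nrap had higher values in every Ang II heart than in any control heart, and Gja1 had lower ones. Xirp1, Pkp2 and Jup were also higher in every Ang II heart, but no RefSeq promoter matched Xirp1 or Pkp2, and that of Jup is not shown. RefSeq promoters, from 250 bases before to 50 bases after a transcript start, matched 6 of the 10 genes. Each is written 5′ to 3′ on the gene's own strand in build GRCm38.p6, with motif matches on either strand in capitals. They are Xirp2 at chr2:67445752-67446051 on the plus strand, Nrap at chr19:56389989-56390288 on the minus strand and Gja1 at chr10:56377050-56377349 on the plus strand.
Xirp2: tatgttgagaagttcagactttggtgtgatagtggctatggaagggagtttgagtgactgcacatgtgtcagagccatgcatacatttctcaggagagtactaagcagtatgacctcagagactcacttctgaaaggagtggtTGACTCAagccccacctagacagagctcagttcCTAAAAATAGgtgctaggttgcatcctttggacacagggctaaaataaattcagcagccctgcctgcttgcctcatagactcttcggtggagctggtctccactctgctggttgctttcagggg
Nrap: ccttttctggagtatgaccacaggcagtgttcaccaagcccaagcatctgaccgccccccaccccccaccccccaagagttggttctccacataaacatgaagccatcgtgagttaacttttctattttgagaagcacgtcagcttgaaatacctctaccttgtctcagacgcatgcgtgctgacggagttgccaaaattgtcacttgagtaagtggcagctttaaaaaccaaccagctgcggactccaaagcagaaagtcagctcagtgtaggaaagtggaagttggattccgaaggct
Gja1: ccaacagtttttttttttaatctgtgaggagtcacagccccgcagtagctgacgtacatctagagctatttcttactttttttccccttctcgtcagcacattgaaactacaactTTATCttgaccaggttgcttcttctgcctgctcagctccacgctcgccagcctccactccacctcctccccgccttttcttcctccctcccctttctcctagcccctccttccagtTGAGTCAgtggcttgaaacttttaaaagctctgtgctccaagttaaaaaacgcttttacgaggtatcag

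The 5 motifs searched were the MEF2 motif and the CArG box, given here by name, the AP-1 motif TGANTCA, the TEAD motif CATTCC and the GATA motif GATAA. The Xirp2 window held a MEF2 match, CTAAAAATAG, whose first base lies at position -74 from the transcript start, and an AP-1 match, TGACTCA, at -107. In mice Xirp2, also called myomaxin, is known as a target of the transcription factor MEF2A. The Gja1 window held the AP-1 match TGAGTCA at -19 and a GATA match, read as TTATC on this strand, at -135. The Nrap window held none of the 5. Of 32851 RefSeq promoters of the same length, 3.19% held the MEF2 motif, 1.63% the CArG box, 7.81% TGANTCA, 14.7% CATTCC and 25.4% GATAA. The Xirp2 transcript start of RefSeq lies inside the deposited gene span, which begins further upstream, and these data do not show which start was used.

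The 6 libraries held 51202916 to 63564869 estimated counts, of which 35.8% to 47.6% fell on mitochondrially encoded genes. Ang II replicate 1 stood apart. Its log2 values correlated with those of the other 5 libraries at Pearson r of 0.852 to 0.881 across 8586 genes, and the other 5 correlated among themselves at 0.938 to 0.968. It is therefore given separately below, and results are set beside those without it. Markers of cardiomyocytes fitted the labelled tissue, with 45714 to 53647 CPM over 10 genes in Ang II hearts and 41358 to 47645 CPM in control hearts. CPM here and below is scaled CPM, counts as a share of the library size after scaling by trimmed mean of M-values. Skeletal muscle markers summed to 13.4 to 17.9 CPM over 9 genes in Ang II hearts and 8.99 to 12.6 CPM in control hearts, with 6 of the 9 under 1 CPM in every library.

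Transcripts of the Xin genes and Nrap were higher in all 3 Ang II hearts than in any control heart, and Xirp1 stood furthest apart. Levels are given as scaled CPM, as defined above. Xirp1 (ENSMUSG00000079243, chr9:120013755-120023598, minus strand), the shorter Xin-repeat protein, had 373.5, 515.4 and 524.1 scaled CPM in Ang II replicates 1, 2 and 3, against 87.8, 114.4 and 103.3 scaled CPM in control replicates 1, 2 and 3. The lowest Ang II heart thus lay well above the highest control heart, and the 3 control hearts lay close together. By edgeR's quasi-likelihood test the log2 change was 2.21 ± 0.21 (SE, n = 3 each), a 4.62-fold difference with an adjusted p of 0.0484. That adjusted p stands just inside the threshold of 0.05 and was 0.00488 without Ang II replicate 1, while leaving out any of the other 5 libraries put it between 0.144 and 0.421.

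Xirp2 (ENSMUSG00000027022, chr2:67173834-67526615, plus strand), the longer Xin-repeat protein, had 360.9, 429.9 and 431.8 scaled CPM in Ang II hearts, against 137.0, 184.8 and 160.4 scaled CPM in control hearts. The groups did not overlap, and Ang II replicates 1, 2 and 3 lay 1.18, 1.43 and 1.43 above the control mean on the log2 scale. Its log2 change of 1.34 ± 0.18 (SE, n = 3 each) came with an edgeR adjusted p of 0.133 that became 0.0259 without Ang II replicate 1.

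Nrap (ENSMUSG00000049134, chr19:56320035-56390037, minus strand), a nebulin-related protein that anchors the ends of myofibrils to the disc, had 353.0, 495.5 and 492.5 scaled CPM in Ang II hearts, against 210.0, 278.5 and 252.3 scaled CPM in control hearts. Its lowest Ang II value, again in replicate 1, exceeded its highest control value. Nrap had a log2 change of 0.86 ± 0.20 (SE, n = 3 each) and an edgeR adjusted p of 0.42, or 0.0472 without Ang II replicate 1. Nrap overlaps Habp2 on the opposite strand by 788 bases, and the labels do not say whether counting used strand. Habp2 had 446, 762 and 751 counts in Ang II hearts and 189, 324 and 182 counts in control hearts, so its reads are few beside the 9596 to 35044 counts of Nrap. Xirp1 lies within the annotated span of Cx3cr1 on the same strand, and Cx3cr1 had 52 to 147 counts in any library.

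**Figure D1:**
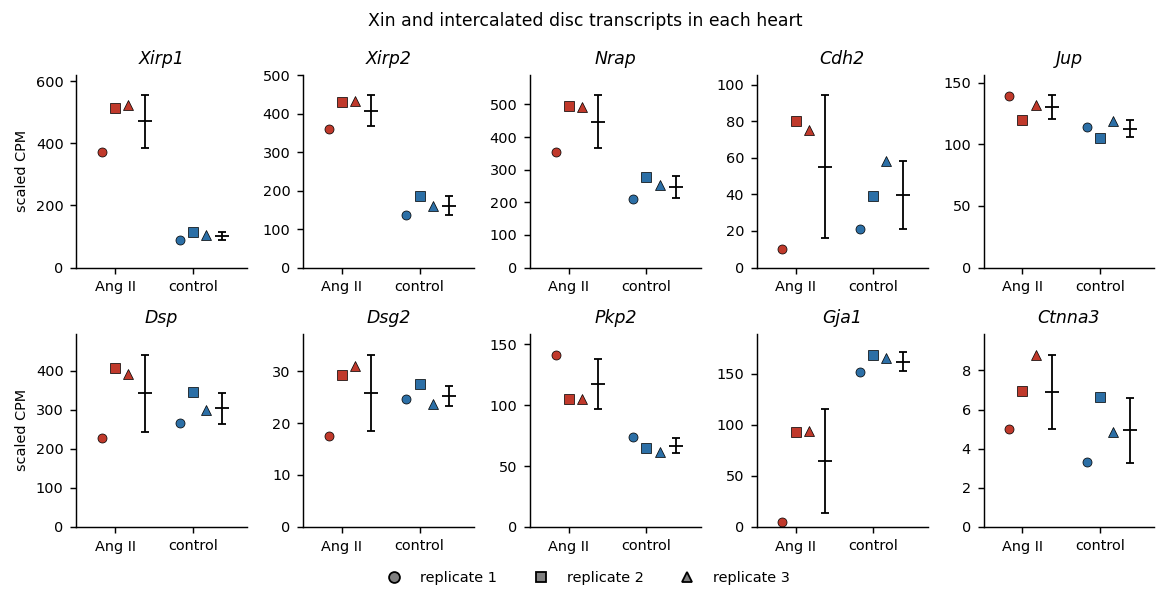
Scaled CPM (y axis, each panel from 0) of the 10 genes in each Ang II heart (red, left) and control heart (blue, right); symbols give the replicate and bars the mean ± SD (n = 3 each). Xirp1, Xirp2, Nrap, Jup and Pkp2 are higher in every Ang II heart than in any control heart, Gja1 is lower, and Ang II replicate 1 (circle) holds very low Gja1 and Cdh2.

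At the desmosome, Pkp2 was higher in Ang II hearts, while Jup, Dsp and Dsg2 had smaller differences. Pkp2 (ENSMUSG00000041957, chr16:16213318-16248489, plus strand), an armadillo-repeat protein of the desmosomal plaque, had 141.7, 105.4 and 105.4 scaled CPM in Ang II hearts, against 73.6, 64.5 and 61.7 scaled CPM in control hearts. The groups did not overlap, and here Ang II replicate 1 was the highest heart. Pkp2 had a log2 change of 0.82 ± 0.18 (SE, n = 3 each), or 0.66 without Ang II replicate 1, with edgeR adjusted p of 0.365 and 0.0682.

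Jup (ENSMUSG00000001552, chr11:100368958-100397749, minus strand), which encodes plakoglobin of both desmosomes and adherens junctions, had 138.9, 119.8 and 131.8 scaled CPM in Ang II hearts and 114.2, 105.0 and 118.5 scaled CPM in control hearts. The groups did not overlap, by a narrow gap, at a log2 change of 0.21 ± 0.14 (SE, n = 3 each). Dsp (ENSMUSG00000054889, chr13:38151294-38198577, plus strand), the desmoplakin that holds intermediate filaments, had 228.2, 407.2 and 392.7 scaled CPM in Ang II hearts and 267.7, 345.0 and 299.4 scaled CPM in control hearts. Ang II replicate 1 was below every control heart and the other Ang II hearts were above them. The log2 change of Dsp was 0.17 ± 0.25, and 0.40 without that library.

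Dsg2 (ENSMUSG00000044393, chromosome 18), the desmosomal cadherin, had 17.4, 29.2 and 30.9 scaled CPM in Ang II hearts and 24.6, 27.4 and 23.6 scaled CPM in control hearts. Its groups overlapped, and its log2 change of 0.04 ± 0.24 (SE, n = 3 each) turned negative when Ang II replicate 2 or 3 or control replicate 3 was left out.

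Among the 10 genes, Gja1 and Cdh2 varied most between Ang II hearts, with coefficients of variation of 79.5% and 71.0%. Gja1 (ENSMUSG00000050953, chr10:56377330-56402513, plus strand) had 5.24, 93.0 and 93.8 scaled CPM in Ang II hearts, against 151.6, 168.6 and 165.0 scaled CPM in control hearts. These rest on 228, 6542 and 6674 counts in Ang II hearts and on 6926, 11225 and 9077 counts in control hearts. All 3 Ang II hearts were below all 3 control hearts, replicates 2 and 3 by a similar step and replicate 1 by far more. Over all 6 libraries the log2 change was -1.34 ± 0.87 (SE, n = 3 each; edgeR adjusted p = 0.756). Without Ang II replicate 1 it was -0.79 ± 0.09 (edgeR adjusted p = 0.039, 2 against 3 libraries), a 1.73-fold lower level.

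Cdh2 (ENSMUSG00000024304, chromosome 18) had 10.0, 80.3 and 75.0 scaled CPM in Ang II hearts and 21.3, 39.3 and 58.5 scaled CPM in control hearts. Ang II replicate 1 was the lowest heart and Ang II replicates 2 and 3 were the highest, while the control hearts also spread widely, with a coefficient of variation of 46.8%. The log2 change was 0.47 ± 0.73 (SE, n = 3 each), and 0.97 without Ang II replicate 1. Ctnna3 (ENSMUSG00000060843, chr10:63430098-65003667, plus strand), the αT-catenin that links cadherins and Pkp2 in heart muscle, was the least abundant of the genes. It had 4.99, 6.94 and 8.80 scaled CPM in Ang II hearts and 3.30, 6.65 and 4.85 scaled CPM in control hearts, and the groups overlapped at a log2 change of 0.48 ± 0.32.

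**Figure D2:**
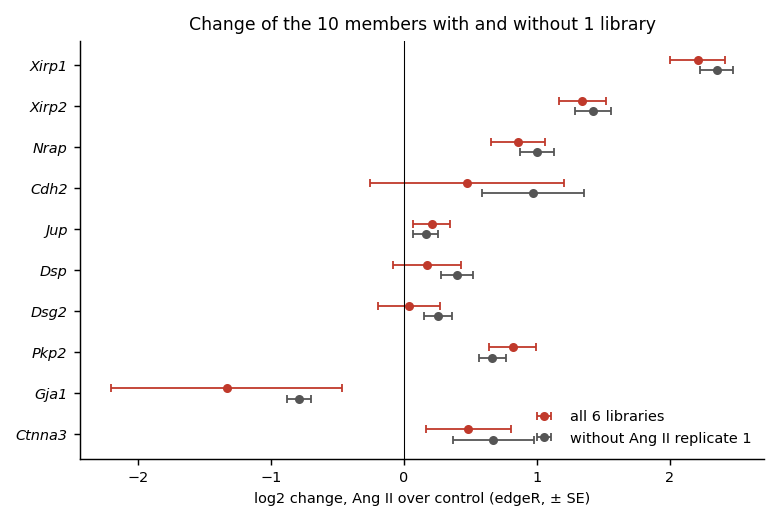
Log2 change of each gene, Ang II over control, by edgeR (x axis; points with SE bars), for all 6 libraries (red) and without Ang II replicate 1 (grey). Leaving out that library narrows the bars of Gja1 and Cdh2, moves Gja1 to -0.79 and Cdh2 to 0.97, and leaves every gene on the same side of 0.

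In counts, 1 of the 10 genes was past the threshold by edgeR and higher in Ang II hearts, where 0.0358% of all tested genes were past it. At an unadjusted p under 0.05 there were 4, all higher (Xirp1, Xirp2, Nrap and Pkp2), against 3.57% of tested genes higher at that level. The same 4 were past the adjusted threshold by DESeq2, where 0.949% of tested genes were called higher. Without Ang II replicate 1, edgeR called Xirp1, Xirp2 and Nrap higher and Gja1 lower, where 0.527% and 0.204% of tested genes were called higher and lower. Groups that did not overlap were found for 5 genes that were higher and 1 that was lower, against 7.97% and 9.21% of tested genes. The log2 change was above 0 for 9 of the 10, against 50.9% of tested genes, and its median was 0.48, against 0.01. As the genes were picked with this contrast known, nothing is read from these counts.

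Ang II replicate 1 differed from the other Ang II hearts by transcript length as well as by gene. Its log2 CPM minus the mean of replicates 2 and 3 had a median of 0.48 over 1719 genes whose longest coding transcript spans 180 to 1794 bases. The median was -0.30 over 1717 genes with transcripts of 5304 bases or more. Xirp1 at -0.48, Nrap at -0.48 and Xirp2 at -0.26 lay inside the middle 50% of those long genes, from -0.72 to 0.06. Dsp at -0.81 and Dsg2 at -0.77 lay just below it, as did Ctnna3 at -0.60 among genes of its own length. Jup at 0.14 lay inside the range of genes of its own length, and Pkp2 at 0.43 just above it. Gja1 at -4.03 and Cdh2 at -2.89 lay far outside, and only 0.245% and 0.967% of 8586 genes were lower. Whether RNA quality, library preparation or the heart itself set this library apart was not tested.

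**Figure D3:**
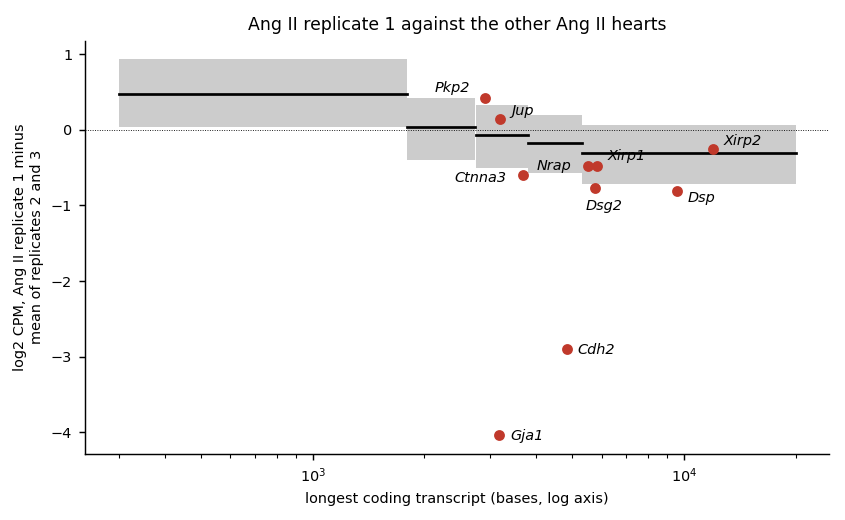
Log2 CPM of Ang II replicate 1 minus the mean of Ang II replicates 2 and 3 (y axis) against the length of the longest coding transcript (x axis, log scale). Black lines and grey boxes give the median and middle 50% of all compared genes in 5 length bins, the outer bins being drawn only in part, and red points are the 10 genes; Gja1 and Cdh2 lie far below the genes of their length.

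Of 61 other tested disc genes described further on, 27 were lowest of the 6 hearts and 12 were highest in this library, against 31.6% and 30.9% of all tested genes. Of the 16 adherens junction genes among them 8 were lowest and 4 highest, and of the 14 ion channel and membrane genes 8 and 2. The counts were 3 and 1 of 7 desmosomal genes, 6 and 2 of 18 in the list of Xin and Nrap partners, and 2 and 3 of 6 gap junction genes. Large drops, picked here after their values were seen, are given for 3 genes. Vinculin (Vcl) had 4.39, 52.3 and 61.5 scaled CPM in Ang II replicates 1, 2 and 3, against 20.6, 30.5 and 24.5 scaled CPM in control hearts. The αE-catenin gene Ctnna1 had 11.3, 217.7 and 222.4 scaled CPM in Ang II hearts and 128.8, 197.0 and 73.2 scaled CPM in control hearts. Filamin C (Flnc), an actin crosslinker that binds Xin, had 53.2, 313.1 and 310.4 scaled CPM in Ang II hearts and 59.1, 118.1 and 90.4 scaled CPM in control hearts. In all 3 genes Ang II replicate 1 was the lowest of the 6 hearts and Ang II replicates 2 and 3 were the highest.

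Ratios between genes of the same library do not depend on scaling between libraries, and were computed after the values were seen, on the authors' FPKM (fragments scaled by gene length and library size). The ratio of Xirp1 to Nrap was 0.935, 0.919 and 0.941 in Ang II hearts, against 0.370, 0.363 and 0.362 in control hearts. It was thus nearly constant within each group, Ang II replicate 1 included, and averaged 0.932 ± 0.011 in Ang II hearts and 0.365 ± 0.0042 in control hearts (SD, n = 3 each). Xirp2 to Nrap was 0.392, 0.332 and 0.336 in Ang II hearts and 0.250, 0.254 and 0.243 in control hearts. Xirp1 to Xirp2 was 2.39, 2.77 and 2.80 in Ang II hearts and 1.48, 1.43 and 1.49 in control hearts. The 3 genes were therefore not higher in equal measure. Ratios to Nrap whose groups do not overlap are common, and were found for 53.7% of the other 16758 tested genes.

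**Figure D4:**
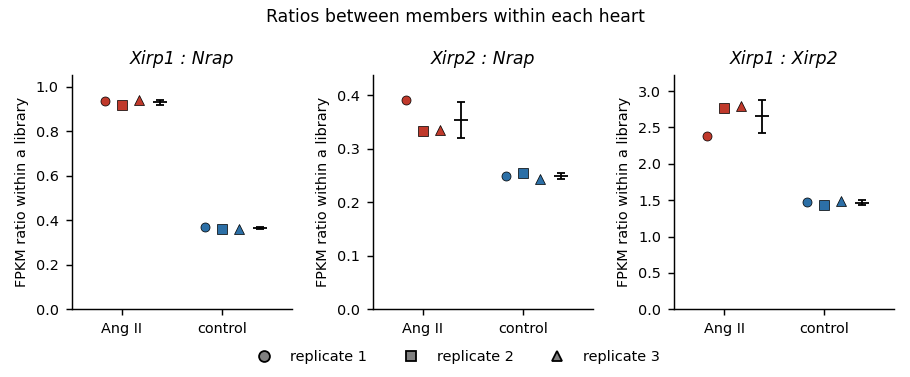
Ratio of FPKM values within each library (y axes, from 0) for Xirp1 to Nrap, Xirp2 to Nrap and Xirp1 to Xirp2, in Ang II hearts (red, left) and control hearts (blue, right), with mean ± SD (n = 3 each). Xirp1 to Nrap sits between 0.919 and 0.941 in Ang II hearts and between 0.362 and 0.370 in control hearts.

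As a share of the summed FPKM of the 10 genes, Xirp1 made up 26.6%, 27.0% and 27.3% in Ang II hearts, against 9.94%, 10.7% and 10.3% in control hearts. Nrap made up 29.0% ± 0.46 in Ang II hearts and 28.3% ± 1.31 in control hearts (SD, n = 3 each), which is within the spread between hearts. Gja1 made up 0.226%, 2.96% and 2.97% in Ang II hearts and 10.4%, 9.59% and 9.97% in control hearts.

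Ordered by mean FPKM in Ang II hearts, the genes ran Nrap (77.9), Xirp1 (72.5), Dsp (34.4), Xirp2 (27.0), Pkp2 (20.3), Jup (18.9), Cdh2 (6.90), Gja1 (6.36), Dsg2 (3.03) and Ctnna3 (0.919). In control hearts the order was Nrap (41.6), Dsp (29.2), Jup (15.9), Xirp1 (15.2), Gja1 (14.5), Pkp2 (11.2), Xirp2 (10.4), Cdh2 (4.65), Dsg2 (2.80) and Ctnna3 (0.645). By mean FPKM Xirp1 thus stood at rank 2 in Ang II hearts and rank 4 in control hearts. In control replicates 1, 2 and 3 taken singly it was at rank 5, 3 and 4. In Ang II hearts the ranges of neighbours were separate between Xirp1 and Dsp, between Jup and Cdh2, and between Dsg2 and Ctnna3. In control hearts they were separate between Dsp and Jup, between Xirp2 and Cdh2, and between Dsg2 and Ctnna3. All other neighbours overlapped in range between hearts. Compared within each library, Nrap was above Xirp1 and Cdh2 above Gja1 in all 3 Ang II hearts. Likewise Nrap was above Dsp and Gja1 above Pkp2 in all 3 control hearts. The remaining overlapping neighbours held their order in 2 of the 3 hearts of a group.

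The order rests on the gene length behind FPKM. The counts and FPKM of Gja1 imply a length of 11.2 kb, close to its merged annotated exons of 10.3 kb, while its longest coding transcript is 3.18 kb. Per kilobase of longest coding transcript, Gja1 had 20.1 ± 16.0 scaled CPM in Ang II hearts and 50.8 ± 2.81 scaled CPM in control hearts (SD, n = 3 each), rank 7 and rank 1 of the 10. Nrap had 81.3 ± 14.8 scaled CPM per kilobase in Ang II hearts and 44.9 ± 6.29 scaled CPM per kilobase in control hearts. Xirp1 had 80.7 ± 14.5 scaled CPM per kilobase in Ang II hearts and 17.4 ± 2.28 scaled CPM per kilobase in control hearts. That put Xirp1 at rank 2 in Ang II hearts and rank 6 in control hearts. The lengths implied for Xirp1 and Xirp2, 6.78 and 15.6 kb, were further above their merged exons of 5.84 and 12.0 kb. Differences between groups for one gene are not touched by this choice.

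The genes whose pattern over the 6 libraries was most like that of Xirp1 were Pcp4l1, Acta1, Tmem144, Hbegf and Xirp2, at Pearson r of 0.999, 0.999, 0.998, 0.997 and 0.996 on log2 CPM among 8607 genes compared. The points share libraries and fall into 2 groups, so r is set largely by the step between groups. Acta1, the actin of skeletal muscle and of the fetal heart, had 504.3, 718.0 and 706.1 scaled CPM in Ang II hearts and 135.3, 159.8 and 162.8 scaled CPM in control hearts. Hbegf, a growth factor that binds the EGF receptor, had 30.3, 51.4 and 46.4 scaled CPM in Ang II hearts and 5.10, 5.96 and 6.18 scaled CPM in control hearts. Both, like Xirp1, were lowest among Ang II hearts in replicate 1. Tmem144 had a log2 change of 1.19 and Pcp4l1, which encodes a small protein related to Pcp4, one of 0.34. Of the other genes followed here, Nrap ranked 55 by this measure with r of 0.964 and Pkp2 ranked 329 with r of 0.854, while Gja1 had r of -0.50.

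Beyond the 10 genes, other genes of the disc were listed by role under 73 symbols. These name 72 genes, since Popdc1 is another symbol for Bves, and 61 had enough counts to be tested. By edgeR 0 of the 61 were past the adjusted threshold. Before adjustment 6 of them were higher and 2 lower at p under 0.05, where 3.57% and 3.94% of all tested genes were. By DESeq2 the desmin gene Des and Synpo2l, 2 of the 61, were called higher, where 0.949% of all tested genes were. The log2 change was above 0 for 41 of 61, against 50.9% of all tested genes. Its median was 0.11, or 0.20 without Ang II replicate 1, against 0.01 and -0.01 over all tested genes. The lists below, given for all 6 libraries, stand beside the same 50.9% and 0.01. The 11 genes without enough counts, mostly desmosomal and connexin paralogs of skin and other epithelia such as Dsg1a, Dsg3 and Gjb6, had at most 13 counts in any library.

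In the list of Xin and Nrap partners, 15 of 18 genes were above 0, with a median log2 change of 0.28. The list also takes in Z-disc and sarcomere genes such as Synpo2l and Ankrd1, and binding to Xin or Nrap was not tested. Cardiomyocyte markers were much alike, with 9 of 10 above 0 and a median of 0.26. Synpo2l, an actin-associated protein of the Z-disc, had 97.1, 97.8 and 95.4 scaled CPM in Ang II hearts, against 44.9, 64.1 and 47.1 scaled CPM in control hearts. Its log2 change was 0.89 ± 0.18 (SE, n = 3 each), with an adjusted p of 0.329 by edgeR and 0.00168 by DESeq2. Ankrd1, a stress-responsive ankyrin-repeat protein of the sarcomere, had 528.1, 824.4 and 778.1 scaled CPM in Ang II hearts and 408.8, 468.2 and 423.3 scaled CPM in control hearts. Neither gene's groups overlapped, and Ankrd1 was past the edgeR threshold without Ang II replicate 1 (adjusted p = 0.0336).

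Of desmosomal genes outside the 10, 3 of 7 were above 0, with a median log2 change of -0.38. Des, the intermediate filament that desmoplakin holds, had 2102, 2133 and 2038 scaled CPM in Ang II hearts and 1244, 1464 and 1290.0 scaled CPM in control hearts. Its log2 change was 0.65 ± 0.16 (SE, n = 3 each), with an adjusted p of 0.449 by edgeR and 0.000318 by DESeq2. Synm, a filament protein that binds desmin, had 5.45, 4.48 and 4.99 scaled CPM in Ang II hearts and 6.04, 6.43 and 8.03 scaled CPM in control hearts. Des and Synm both had groups that did not overlap, in opposite directions.

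Adherens junction genes were above 0 in 11 of 16, with a median log2 change of 0.03. Without Ang II replicate 1 they were above 0 in 8 of 16, with a median of 0.07. Afdn, whose protein afadin couples nectins to actin, had 4.55, 17.4 and 16.4 scaled CPM in Ang II hearts and 30.2, 31.0 and 28.6 scaled CPM in control hearts. Its pattern was of the same shape as that of Gja1, lower in every Ang II heart and lowest in replicate 1. The log2 change was -1.23 ± 0.46 (edgeR adjusted p = 0.62), and -0.83 without Ang II replicate 1 (edgeR adjusted p = 0.041). Arvcf, a catenin of the p120 family, had a log2 change of 0.50 ± 0.24 and overlapping groups.

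Gap junction genes outside the 10 were above 0 in 2 of 6, and their median log2 change was -0.11. Without Ang II replicate 1 they were above 0 in 3 of 6, with a median of 0.02. The connexin 40 gene Gja5, typical of atria and conduction fibres, had 6.83, 3.09 and 4.50 scaled CPM in Ang II hearts and 8.32, 6.56 and 6.96 scaled CPM in control hearts, with overlap. Panx1, a channel protein related to connexins in topology, had a log2 change of 0.52 ± 0.32. Of ion channel and membrane genes of the disc 10 of 14 were above 0 with a median of 0.09, and without Ang II replicate 1 there were 13 with a median of 0.27. Popdc3, a membrane protein that binds cyclic AMP, had 13.5, 14.8 and 13.6 scaled CPM in Ang II hearts and 9.28, 11.8 and 9.85 scaled CPM in control hearts. Its groups did not overlap, and it passed the adjusted threshold by neither edgeR nor DESeq2.

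**Figure D5:**
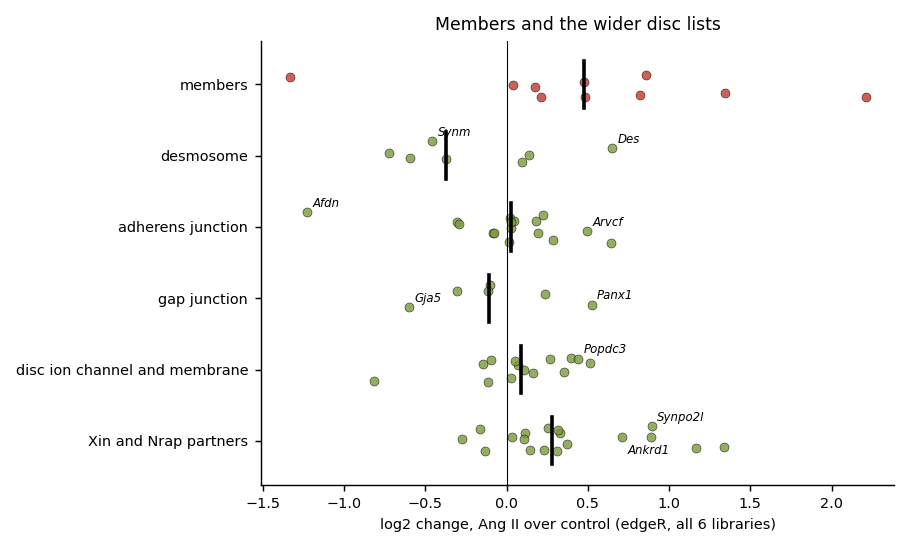
Log2 change, Ang II over control, by edgeR over all 6 libraries (x axis) for the 10 genes (red) and 61 other tested disc genes (green) by list; vertical bars are list medians and vertical scatter within a list has no meaning. The 10 genes have a median of 0.48 and the list of Xin and Nrap partners 0.28, while the other lists lie between -0.38 and 0.09. Cardiomyocyte markers, not drawn, have a median of 0.26. Without Ang II replicate 1 the ion channel and membrane list moves to 0.27, the partner list to 0.36 and the gap junction list to 0.02.

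Marker sums of other cell types moved with the groups in part. Atrial cardiomyocyte markers (Myl7, Myl4, Sln, Bmp10, Nppa and Dkk3) summed to 276 to 416 CPM in Ang II hearts and 107 to 150 CPM in control hearts. Of these 6 genes 3 were under 1 CPM in every library, so the sum rests on the others. Whether it reflects the amount of atrial tissue was not tested. Endothelial markers summed to 660 to 795 CPM over 9 genes in Ang II hearts and 848 to 903 CPM in control hearts. Fibroblast markers summed to 340 to 612 CPM over 8 genes in Ang II hearts, lowest in replicate 1, and 596 to 623 CPM in control hearts. Red blood cell markers summed to 444 to 593 CPM over 5 genes in Ang II hearts and 802 to 2038 CPM in control hearts. Gja1 and Cdh2 are also made by fibroblasts and vessel cells. The part of these cells in any of the values above was not tested.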

How the data were processed

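The deposited table holds an FPKM value and an estimated count per Ensembl gene and library. FPKM was taken from the authors' columns unchanged, where 0.0001 marks a count of 0. The authors' estimated counts are deposited as whole numbers and were used as they stand. The submitters' processing notes name Bowtie 0.12.2, HISAT2 2.0, StringTie 1.3.0 and build mm8, without roles. The coordinates in the table are those of GRCm38, since start and end equal those of GENCODE M21 for 47890 of 55141 shared genes (86.9%), 7 of the 10 genes among them. Per the labels' protocols, libraries were paired-end with poly(A) selection, from RNA with an integrity number above 7.

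Counts were tested with edgeR 4.0.16 in R 4.3.3 (two-sided quasi-likelihood test after filterByExpr, libraries scaled by trimmed mean of M-values), with Benjamini-Hochberg adjusted p-values over 16759 genes and 0.05 as threshold. Standard errors come from the log2 change and its test statistic. DESeq2 1.42.0 and limma 3.58.1 on log2(FPKM + 0.5) were alternatives, and the scripts were tested on simulated data. The genes and lists were chosen with earlier results of these data known. Named are the 10 genes, in each wider list those past the threshold and the 2 with the smallest p, and the 5 genes most like Xirp1 with a mean of at least 5 scaled CPM; others were chosen after their values were seen. The result for 1 gene that this rule names is not reported here. Figures were drawn with matplotlib 3.10.9. Within a group, libraries differed by a chi-square per degree of freedom of 34.1 to 482, so none is a repeat of another. Counting error is small at these depths beside the spread between hearts.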

Additional observations from a re-analysis of the deposited data

How the results depend on the processing

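Across 20 gene results and 298 alternative values, 274 kept direction and side of the threshold, 10 fell short of it (all Xirp1), 10 newly passed it and 4 changed sign, all of Dsg2. Dsg2 was at -0.0030 with the replicate number as a block, at -0.06 and -0.11 without Ang II replicates 2 and 3, and at -0.01 without control replicate 3; with each library left out it ran between -0.11 and 0.26. Among all genes edgeR called 6, against 276 by DESeq2 (159 higher and 117 lower). limma on log2(FPKM + 0.5) called 3 genes, with a pseudocount of 0.1 it called 2 and with no filter 1. With no filter on low counts edgeR called 12, with the replicate block 0 (1104 at an unadjusted p under 0.05), and with each library left out 0 to 129. Of the 10 genes, edgeR called 1 and DESeq2 4, the limma settings 0 each, the fit without mitochondrially encoded genes 0 (Xirp1 adjusted p = 0.0502), the replicate block 0 and leaving out each library 0 to 4, with 4 at an unadjusted p under 0.05 in each of these except without Ang II replicate 1, where it was 7 and where 15.4% of all tested genes were at that level (7.51% with all 6 libraries). Of the wider disc genes edgeR called 0, DESeq2 2 and leaving out each library 0 to 2, with an unadjusted p under 0.05 for 21 in the fit that leaves out Ang II replicate 1 and for 4 to 6 when any other library was left out, where 4.86% to 7.14% of all tested genes were. The cause of these differences was not tested.

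Whether replicate numbers pair the hearts cannot be told from these values. Deviations from the group means correlated at 0.139, 0.171 and -0.06 for same-numbered libraries. Ang II replicates 1 and 2 each correlated best with the control of the same number, and Ang II replicate 3 with control replicate 2 (0.149). These correlations cannot decide it, because the deviations within a group depend on one another and Ang II replicate 1 stood apart. Fitted with the replicate number as a block, Xirp1 kept its size (log2 change 2.20) with an edgeR adjusted p of 0.203. With 3 hearts a group, the differences of Xirp1, Xirp2 and Nrap were each called by some settings only.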
